A study of Mus musculus with 2 samples.

Results

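Cldn3, Cldn4, Cldn6, Cldn7, Cldn10 and Cldn18 are 6 of the 31053 genes counted in the control library, and 6 of the 35 genes whose symbol begins with Cldn. They were taken by symbol and are described by the RNA molecules counted in single epithelial cells of the mouse lung at embryonic day 15. Lung epithelial cells had been purified by fluorescence-activated sorting and profiled on the 10x Chromium 3′ platform, which tags each captured RNA molecule with a unique molecular identifier (UMI) and each cell with a barcode. The series compares a control genotype with a knockout of LEF/TCF factors, the transcription factors that carry Wnt signals to target genes, with 1 library of each genotype at the same age. The labels name the control only as control, and give no strain, Cre driver or number of pooled embryos. Only the control library is described below, and expression in the knockout library was not analysed here, so no value bears on the effect of the knockout. With 1 library there was no replicate, cells of 1 library are not replicates, and no test was made. The 95% intervals given cover counting error only.

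Claudins are small membrane-spanning proteins that polymerise into the strands of tight junctions, the seals between neighbouring epithelial cells. The set of claudins in a cell decides how tight the seal is and which ions pass through it: some claudins seal the space between cells, and others, such as claudin-10, form ion-selective pores. In the mature lung, claudin-3, claudin-4 and claudin-18 are the major claudins of the alveolar epithelium, and the fluid secreted by the fetal lung is held in the lumen by these junctions.

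The 6 genes lie on 5 mouse chromosomes (GRCm38, positions from GENCODE M21). Cldn3 (ENSMUSG00000070473, chromosome 5, 134986214 to 134987472, plus strand) and Cldn4 (ENSMUSG00000047501, chromosome 5, 134945119 to 134946934, minus strand) are neighbours, with 39279 bases and 0 other coding genes between them. Cldn6 (ENSMUSG00000023906, chromosome 17, 23679249 to 23682446, plus strand) ends 137 bases from the end of Cldn9, which runs towards it on the minus strand. Cldn7 (ENSMUSG00000018569) spans 69964779 to 69967885 on the plus strand of chromosome 11. Cldn10 (ENSMUSG00000022132, chromosome 14, 118787908 to 118875489, plus strand) and Cldn18 (ENSMUSG00000032473, chromosome 9, 99689461 to 99717267, minus strand) are longer, at 87582 and 27807 bases. Both of them have an upstream and a downstream group of transcript starts, and UMIs read from the 3′ end do not tell the forms apart where these share their end. Cldn3 overlaps Wbscr25 on the other strand, to which 148 UMIs were counted in epithelial cells, and Cldn18 overlaps Gm16004, with 0.

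All 6 genes were matched in RefSeq's promoter windows (build GRCm38.p6, 250 bases before to 50 after a start), in 9 windows. The windows of Cldn10 and Cldn18 are shown because these 2 genes went in opposite directions between airway-like and distal progenitor-like cells below and each has 2 starts, and that of Cldn6 because it was the most abundant member. Capitals mark exact matches, on either strand, to CTCAAG, a core that NKX2-1 binds, and to GGGCGG, the GC box. The motifs do not overlap one another.

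Cldn10 upstream start, chr14:118787621-118787920, plus strand: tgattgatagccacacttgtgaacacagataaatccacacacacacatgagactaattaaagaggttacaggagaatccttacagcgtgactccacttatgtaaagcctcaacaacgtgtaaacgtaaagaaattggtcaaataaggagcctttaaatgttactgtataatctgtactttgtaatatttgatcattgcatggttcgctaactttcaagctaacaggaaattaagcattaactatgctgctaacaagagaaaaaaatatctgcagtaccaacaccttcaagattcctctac
Cldn10 downstream start, chr14:118854700-118854999, plus strand: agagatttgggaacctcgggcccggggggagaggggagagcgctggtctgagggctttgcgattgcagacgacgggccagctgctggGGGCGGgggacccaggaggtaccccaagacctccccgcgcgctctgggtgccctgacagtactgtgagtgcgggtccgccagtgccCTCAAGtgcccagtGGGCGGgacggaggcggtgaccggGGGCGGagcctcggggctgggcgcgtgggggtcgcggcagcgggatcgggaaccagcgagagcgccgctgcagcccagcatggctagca
Cldn18 upstream start, chr9:99717218-99717517, minus strand: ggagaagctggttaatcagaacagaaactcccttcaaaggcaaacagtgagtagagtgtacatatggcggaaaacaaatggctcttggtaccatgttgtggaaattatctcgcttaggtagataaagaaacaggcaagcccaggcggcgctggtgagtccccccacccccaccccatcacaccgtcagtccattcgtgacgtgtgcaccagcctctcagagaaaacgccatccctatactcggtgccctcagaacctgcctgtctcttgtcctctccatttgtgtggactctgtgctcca
Cldn18 downstream start, chr9:99710014-99710313, minus strand: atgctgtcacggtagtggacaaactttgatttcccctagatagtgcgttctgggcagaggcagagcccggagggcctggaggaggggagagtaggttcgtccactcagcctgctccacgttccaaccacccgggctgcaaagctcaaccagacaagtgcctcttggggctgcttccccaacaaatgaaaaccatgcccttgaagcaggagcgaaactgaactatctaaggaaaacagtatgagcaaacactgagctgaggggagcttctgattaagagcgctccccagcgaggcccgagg
Cldn6, chr17:23679115-23679414, plus strand: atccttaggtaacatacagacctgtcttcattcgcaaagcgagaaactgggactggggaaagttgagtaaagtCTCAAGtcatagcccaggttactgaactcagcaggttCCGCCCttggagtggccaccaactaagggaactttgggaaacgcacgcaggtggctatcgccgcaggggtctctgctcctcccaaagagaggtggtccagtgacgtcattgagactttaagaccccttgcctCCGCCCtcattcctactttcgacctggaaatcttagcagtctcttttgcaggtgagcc

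The 2 starts of Cldn10 differ in base composition, with 36.0% G and C in the upstream window and 72.0% in the downstream one. The downstream window holds 3 GC boxes and 1 CTCAAG, and the upstream one none of these. CTCAAG also occurs once in the Cldn6 window, and in 15.9% of all 32851 promoter windows of this length. The GC box is in 35.7% of all windows, and in those of Cldn3, Cldn4 and Cldn6, 1 of 2 for Cldn7 and 1 of 2 for Cldn10, but neither of the 2 for Cldn18. AACCNGTT, the site of the grainyhead-like (GRHL) factors, was in none of the 9 windows and in 2.09% of all windows. A match is a description of these letters and not evidence of binding.

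After removal of 111 of 3568 barcodes, 3457 cells remained, of which 3415 were epithelial by their markers and held 53276949 UMIs, from 2013 to 112424 per cell. Of the barcodes of the control library, 29 also occur among the 5342 of the knockout library. Clusters made without the Cldn, other tight junction and cell-cycle genes were named from marker lists. They gave 798 airway-like cells led by Scgb3a2 and Sox2, 1309 distal progenitor-like cells (3 clusters), 727 alveolar type 1-like cells with Ager, Clic5 and Col4a3, and 545 alveolar type 2-like cells with Sftpb, Sftpa1 and Lamp3. The 2 alveolar classes, 1272 cells, are together called alveolar-leaning. Airway markers summed to 465 CPM (a gene's UMIs over all UMIs of the class, on the usual counts-per-million scale) in airway-like cells and to 4.66 to 37.0 CPM in the other 3 classes. The alveolar names rest on small differences: the 14 alveolar type 1 markers summed to 657 CPM in alveolar type 1-like and 647 CPM in alveolar type 2-like cells. Aqp5 was at 0 in the former, and Krt15, an airway marker, was among its raised markers. Distal markers were highest in the alveolar type 2-like class, where they came to 4232 CPM, with 3381 CPM for distal progenitor-like cells. The distal progenitor-like clusters were named by comparison with airway-like cells only. None of them had a distal marker at 2 times the CPM of all other cells. In the alveolar type 2-like cluster Etv4, Bmp4 and Lin7a reached this. Epithelial markers summed to between 1229 and 2091 CPM in the 4 classes and to 16.5 CPM in 42 mesenchymal-like cells, with all 5 markers present in each epithelial class.

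Median depth differed between the classes, at 10216 UMIs per airway-like cell, 10693 per distal progenitor-like cell, 17071 per alveolar type 1-like cell and 16594 per alveolar type 2-like cell. Cells above 14000 UMIs made up 37.1%, 22.2%, 63.0% and 76.7% of these classes. Cells with at least 4 Xist UMIs and a Y-linked UMI, a sign of a female and a male cell in 1 droplet, made up between 2.06% (distal progenitor-like) and 14.6% (alveolar type 1-like). No doublet caller was used. Levels and ratios were also computed over cells of at most 14000 UMIs, and the main ones are given below. The part of doublets in the results was not tested.

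All 6 genes were expressed in the epithelium, and each had 0 to 3 UMIs in all mesenchymal-like cells together. Cldn6, a claudin known from embryonic epithelia, was the most abundant at 404 CPM (95% interval 399 to 410). Next came Cldn3 at 284 CPM (279 to 288), a sealing claudin of many epithelia. Cldn18, a claudin with a lung form and a stomach form that differ in their first exon, was at 268 CPM (264 to 272), and Cldn7, found along the basolateral side of many epithelia as well as in junctions, at 265 CPM (260 to 269). The intervals of Cldn18 and Cldn7 overlap, so these neighbours in the order were not separated even by counting error. Cldn10 followed at 174 CPM (171 to 178) and Cldn4, a sealing claudin that limits sodium passage, at 52.5 CPM (50.6 to 54.5). Over cells of at most 14000 UMIs the levels were 380 CPM for Cldn6, 265 for Cldn3, 247 for Cldn18, 246 for Cldn7, 177 for Cldn10 and 57.1 for Cldn4, in the same order.

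Mesenchymal-like cells held 10 UMIs of the 6 genes among 362864, or 27.6 CPM against 1447 CPM in the epithelium. Cldn3 had 0 UMIs there, which allows up to 8.27 CPM. To compare shares of cells, each cell was thinned to 5000 UMIs, which left 3327 epithelial cells and 38 mesenchymal-like cells. Cldn6 was then seen in 79.7% of epithelial cells (93.1% unthinned), Cldn3 in 68.4% (89.4%), Cldn7 in 67.0% (88.1%), Cldn18 in 64.3% (84.1%), Cldn10 in 42.8% (61.5%) and Cldn4 in 23.0% (48.9%). In the mesenchymal-like cells, at a median of 7674.5 UMIs against 12908 before thinning, the share was highest for Cldn7 at 7.89% (1.66 to 21.4%), and 0 of 38 cells had a Cldn3 UMI, which allows a share of up to 7.89%. Each epithelial share lay above that in the mesenchymal-like cells.

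**Figure D1:**
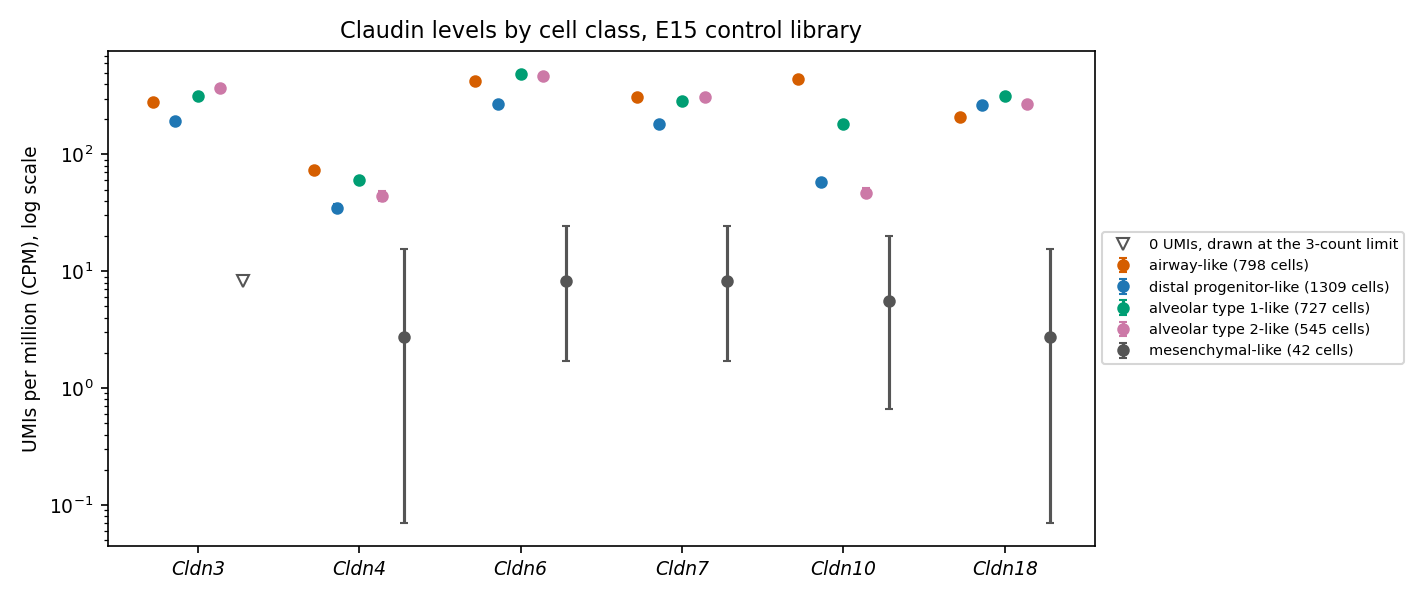
Level of each claudin gene (x axis) in CPM on a log scale (y axis) in the 4 epithelial classes and in mesenchymal-like cells; points are class sums and bars 95% Poisson counting intervals. Cldn10 ranges from 47.0 CPM in alveolar type 2-like to 437 CPM in airway-like cells, and every gene is below 10 CPM in mesenchymal-like cells.

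Cldn10 showed the widest range over the classes. It was at 437 CPM (425 to 449) in airway-like cells, 182 CPM (175 to 189) in alveolar type 1-like cells, 57.9 CPM (54.1 to 61.8) in distal progenitor-like cells and 47.0 CPM (42.9 to 51.3) in alveolar type 2-like cells. It was the most abundant of the 6 in airway-like cells, beside Cldn6 at 427 CPM, with which its interval overlaps, and the fifth in distal progenitor-like cells. The level in airway-like cells was 7.55 times (7.03 to 8.12) that in distal progenitor-like cells, above 99.1% of 10787 genes with at least 50 UMIs in both classes together. At 5000 UMIs, 83.7% of airway-like cells and 21.1% of distal progenitor-like cells had a Cldn10 UMI. The direction did not rest on the clusters: among thinned epithelial cells, 318 with a Sox2 and no Sox9 UMI held Cldn10 at 452 CPM, and 1258 with a Sox9 and no Sox2 UMI at 101 CPM, a ratio of 4.49 (4.03 to 5.01). Sox2 marks the airway side and Sox9 the distal tips of the branching lung. A Sox9 UMI does not pick out the distal progenitor-like class alone. Of 1320 thinned epithelial cells with one, with or without Sox2, 624 were distal progenitor-like and 124 airway-like. Alveolar type 1-like cells made up 280 of them and alveolar type 2-like cells 290. Over 21 alternative settings the ratio was between 3.77 and 9.05.

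Cldn18 had the opposite direction between airway-like and distal progenitor-like cells. It stood at 209 CPM (201 to 218) in airway-like cells, 265 CPM (257 to 273) in distal progenitor-like, 269 CPM (259 to 279) in alveolar type 2-like and 318 CPM (309 to 327) in alveolar type 1-like cells. The middle 2 classes overlap in their intervals. Airway-like over distal progenitor-like, the ratio was 0.790 (0.751 to 0.831), and over cells of at most 14000 UMIs it was 0.637 (0.585 to 0.692). Sox2-only cells held 145 CPM and Sox9-only cells 273 CPM, a ratio of 0.532 (0.462 to 0.611). In all 21 alternatives the ratio lay below 1, from 0.532 to 0.821. Against alveolar type 1-like cells the airway-like level was 0.657 times as high (0.626 to 0.690).

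Cldn4, the least abundant member, was higher in airway-like cells, at 72.8 CPM (68.0 to 78.0) against 34.9 CPM (32.0 to 37.9) in distal progenitor-like cells. The ratio was 2.09 (1.87 to 2.33), and 1.56 to 2.15 over the alternatives. Between Sox2-only and Sox9-only cells it was 1.83 (1.47 to 2.26), from 81.1 and 44.4 CPM. Alveolar type 1-like cells held 60.3 CPM and alveolar type 2-like cells 44.0 CPM of Cldn4. Over cells of at most 14000 UMIs, alveolar type 1-like cells held 83.9 CPM and airway-like cells 81.9 CPM, so the order of these 2 classes turned, while distal progenitor-like cells stayed lowest at 38.2 CPM.

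Cldn3, Cldn6 and Cldn7, like Cldn4, were lower in distal progenitor-like cells than in each of the other 3 classes. Cldn3 was at 193 CPM there and at 283, 317 and 370 CPM in airway-like, alveolar type 1-like and alveolar type 2-like cells. The corresponding values were 268, 427, 483 and 464 CPM for Cldn6 and 181, 308, 286 and 308 CPM for Cldn7. The airway-like over distal progenitor-like ratio was 1.47 (1.40 to 1.55) for Cldn3, 1.59 (1.53 to 1.66) for Cldn6 and 1.70 (1.61 to 1.78) for Cldn7. Over cells of at most 14000 UMIs they were 1.61, 1.67 and 1.83. These ratios depended on where the distal class was drawn. They were 1.15 (1.04 to 1.27), 1.19 (1.09 to 1.30) and 1.47 (1.33 to 1.63) between Sox2-only and Sox9-only cells. They went down to 0.982, 1.07 and 1.21 when the cells were filtered at 2000 genes and clustered again. On the unchanged set of cells, clustering seed 1 gave 0.996, 1.07 and 1.21, and seed 2 gave 1.14, 1.24 and 1.39. The 2000-gene and seed 1 clusterings named no alveolar class. Epcam, a membrane protein of epithelial cells that binds claudin-7, was likewise lowest in distal progenitor-like cells, at 468 CPM against 770, 924 and 981 CPM in the other classes. Nkx2-1, the lung lineage factor, was not, at 357 CPM against 292, 366 and 359 CPM. Transcripts of 105 ribosomal protein genes took 35.9% of the UMIs of distal progenitor-like cells and 32.9%, 30.7% and 29.5% in the other 3. With ribosomal and mitochondrial genes left out of the total, an alternative chosen after the data were seen, the airway-like over distal progenitor-like ratios of Cldn3, Cldn6 and Cldn7 were 1.41, 1.52 and 1.62.

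Counted at a ratio of 1.5 or more, 4 of the 6 genes (Cldn4, Cldn6, Cldn7 and Cldn10) were higher in airway-like than in distal progenitor-like cells, where 21.0% of all genes with at least 50 UMIs were. At 1/1.5 or less, 0 were lower, where 5.07% of all genes were. The median ratio of all genes was itself 1.16 (log2 0.21). Relative to it, the ratios were 6.52 for Cldn10, 1.80 for Cldn4, 1.47 for Cldn7, 1.38 for Cldn6, 1.27 for Cldn3 and 0.682 for Cldn18, so that only Cldn10 and Cldn4 passed 1.5. Cldn10 and Cldn4 passed it in all 21 alternatives, Cldn7 in 10, Cldn6 in 8 and Cldn3 in 4. Part of these alternatives kept the cell classes of the text. Where cells were clustered again, Cldn7 passed it only with 1000 variable genes, 10 or 30 components, or Cldn and tight junction genes kept in. Cldn6 did so only with 30 components or with those genes kept in, and Cldn3 only with those genes kept in.

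**Figure D2:**
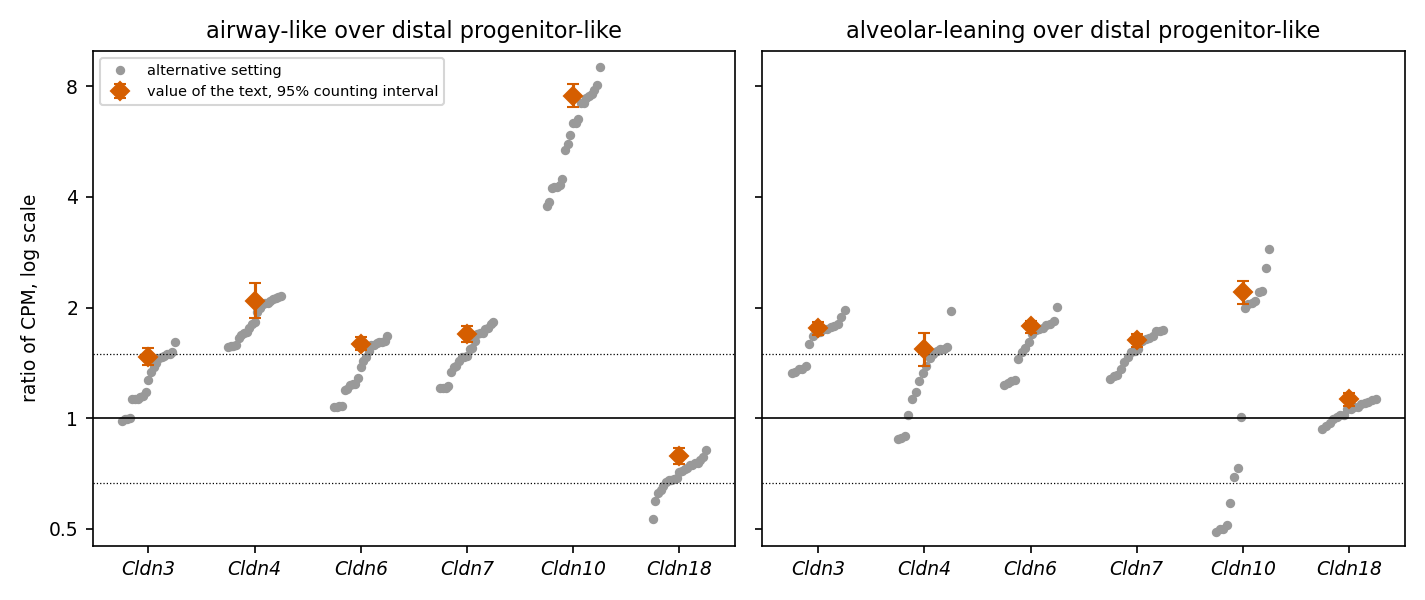
Ratio of CPM (y axis, log scale) of each claudin gene for airway-like (left) and alveolar-leaning (right) over distal progenitor-like cells; diamonds are the values of the text with 95% counting intervals, grey points the alternative settings in order of size, and dotted lines 1.5 and 1/1.5. Cldn10 stays between 3.77 and 9.05 on the left and spans 0.491 to 2.88 on the right.

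Over distal progenitor-like cells, 5 of the 6 genes were at 1.5 or more in alveolar-leaning cells, beside 12.9% of all genes, and 0 were at 1/1.5 or less, beside 1.69%. The ratios were 2.20 (2.04 to 2.37) for Cldn10, 1.78 (1.71 to 1.84) for Cldn6, 1.76 (1.68 to 1.83) for Cldn3, 1.63 (1.56 to 1.70) for Cldn7 and 1.54 (1.39 to 1.71) for Cldn4, and 1.13 (1.08 to 1.17) for Cldn18. Over cells of at most 14000 UMIs they were 2.57 for Cldn10, 2.01 for Cldn6, 1.97 for Cldn3, 1.74 for Cldn7, 1.96 for Cldn4 and 1.06 for Cldn18. For alveolar type 1-like cells alone the count was 5 higher (13.6% of all genes) and 0 lower (2.33%), with a median ratio of all genes of 1.08 (log2 0.11). For alveolar type 2-like cells alone it was 3 higher (14.5%), namely Cldn3 at 1.92 (1.83 to 2.01), Cldn6 at 1.73 (1.66 to 1.81) and Cldn7 at 1.70 (1.62 to 1.79), and 0 lower (4.36%). Between the 2 alveolar classes, Cldn10 was 3.87 times (3.52 to 4.27) as high in the type 1-like one, while the other 5 ratios lay between 0.858 and 1.37.

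This comparison depended on the clustering. Of 13 repeated clusterings with other filters, seeds or settings, 1 gave both alveolar classes, 8 gave the type 2-like class alone and 4 gave neither, their cells then carrying the distal name. In the clusterings with an alveolar class, the number of genes at 1.5 or more was 0, 3 or 5. The Cldn10 ratio was below 1 in 7 of the 16 alternatives with a value, down to 0.491. All 7 were repeated clusterings. Only 2 repeated clusterings with an alveolar class were not below 1. They gave 2.88 with 30 components and 1.01 with Cldn and tight junction genes kept in. The other alternatives kept the cell classes of the text, so they do not bear on the clustering. Over distal progenitor-like cells, Cldn10 and Cldn4 stood at 3.14 and 1.73 in the cells grouped here as alveolar type 1-like, and at 0.811 and 1.26 in the type 2-like ones. Cldn3, Cldn6 and Cldn7 stayed above 1 in all 16, at 1.33 to 1.97, 1.23 to 2.01 and 1.28 to 1.74.

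The 2 large clusters of the distal progenitor-like class differed in claudin expression. They held 706 cells (led by Abhd2, Spry2 and Meg3) and 575 cells (led by Col18a1, Col2a1 and Mia), at similar median depths of 10856.5 and 10428 UMIs. The 6 genes summed to 803 CPM in the former and 1287 CPM in the latter. Cldn6 was at 195 and 375 CPM, Cldn3 at 152 and 252 CPM, Cldn7 at 146 and 232 CPM, Cldn4 at 28.5 and 44.0 CPM and Cldn10 at 32.3 and 93.9 CPM. These 5 genes were thus 1.54 to 2.91 times as high in the second cluster, where 12.0% of all genes reached 1.5, and 0 of 6 were at 1/1.5 or less, where 4.43% were. Cldn18 was nearly even, at 250 and 290 CPM, a ratio of 1.16 (1.09 to 1.23). The cluster with less claudin RNA also had less epithelial marker RNA (1035 against 1500 CPM) and a larger ribosomal protein share (37.4% against 33.8%). The 5 immune markers summed to 1.59 and 141 CPM in the 2 clusters, with Ptprc at 0 in both. Of the latter, 138 CPM was Pf4, from 875 UMIs, 867 of them in 1 of the 575 cells. The small distal progenitor-like cluster of 28 cells held the 6 genes at 599 CPM. Its cells had a median of 0.0573% mitochondrial UMIs and 1931 genes. The part of RNA quality and of other cells' RNA in these differences was not tested.

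The make-up of the claudin RNA differed between airway-like and distal progenitor-like cells mainly in Cldn10 and Cldn18. Cldn10 gave 25.2% (24.6 to 25.8%) of the UMIs of the 6 genes in airway-like cells, 5.79% (5.43 to 6.17%) in distal progenitor-like, 10.7 to 11.4% (the interval) in alveolar type 1-like and 3.13% (2.86 to 3.41%) in alveolar type 2-like cells. Cldn18 gave 12.0% (11.6 to 12.5%) in airway-like cells, 26.5% (25.8 to 27.2%) in distal progenitor-like, 19.3% in alveolar type 1-like and 17.9% in alveolar type 2-like cells. Cldn6 held between 24.6% and 30.9% in every class, and Cldn7 between 17.3% and 20.5%. The total of a class cancels in these shares, but the share of 1 gene also falls when another gene rises. Any link of the shares to ribosomal content was not tested.

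**Figure D3:**
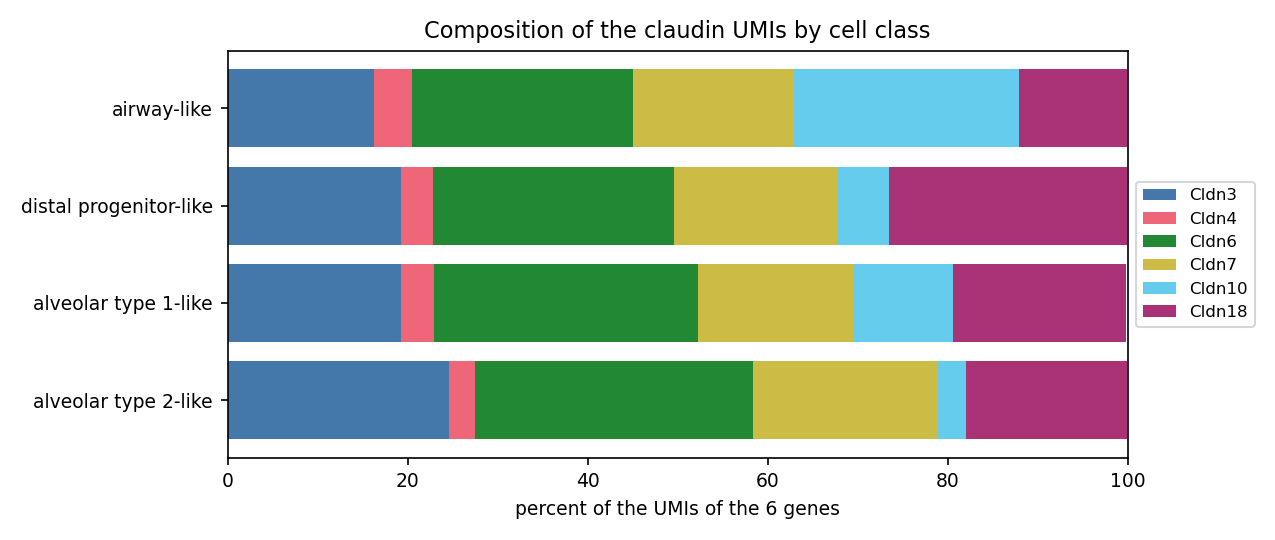
Share of each gene in the UMIs of the 6 claudin genes (x axis, percent) in the 4 epithelial classes (rows). Cldn10 takes 25.2% in airway-like cells and 3.13% in alveolar type 2-like cells, and Cldn18 takes 12.0% in airway-like and 26.5% in distal progenitor-like cells.

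From cell to cell, Cldn10 was the most uneven. Over the 3327 thinned epithelial cells its variance was 2.23 times its mean, above 99.3% of 584 genes of like mean, whose median was 1.07. The ratio was 1.40 for Cldn3, 1.06 for Cldn4, 1.46 for Cldn6, 1.37 for Cldn7 and 1.46 for Cldn18, at percentiles of 71.4 to 94.1 among genes of like mean. Within airway-like cells the ratio of Cldn10 was 1.54 (percentile 88.5), and Cldn18 was the more uneven gene there at 1.63 (percentile 97.6). For Cldn10 it was 1.60 (percentile 99.3) in distal progenitor-like, 1.53 (98.0) in alveolar type 1-like and 1.14 (93.7) in alveolar type 2-like cells. No Cldn18 UMI was found in 49.9% of airway-like cells, and 3.44% had 4 or more. For Cldn10 in the same cells, 16.3% had none and 21.0% had 4 or more. In distal progenitor-like cells the order turned: 78.9% had no Cldn10 UMI and 32.1% no Cldn18 UMI.

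**Figure D4:**
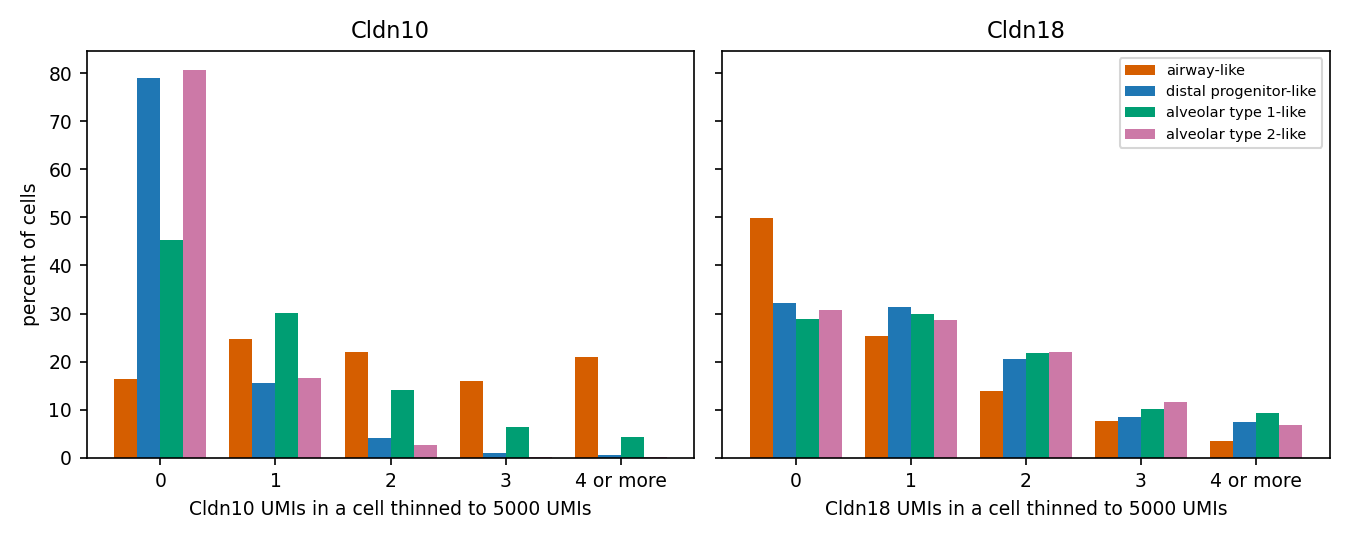
Percent of cells (y axis) with 0, 1, 2, 3 or at least 4 UMIs (x axis) of Cldn10 (left) and Cldn18 (right) after thinning each cell to 5000 UMIs, by class. Cldn10 is at 0 in 16.3% of airway-like and 78.9% of distal progenitor-like cells, and Cldn18 in 49.9% and 32.1%.

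Most epithelial cells showed several of the 6 genes at once. At 5000 UMIs the median was 4 of 6 genes per cell, 3.82% of cells showed all 6, and 1.47% none. The median was 3 in distal progenitor-like cells and 4 in the other 3 classes. Cells with both members of a pair were 0.942 to 1.26 times as frequent as the product of the single shares. The highest value was for Cldn4 with Cldn10 (12.4% of cells with both, against a product of 9.85%) and the lowest for Cldn10 with Cldn18 (25.9% against 27.5%). Within the classes, Cldn4 with Cldn10 stood at 1.09 in airway-like and 1.26 in distal progenitor-like cells and at 0.977 in alveolar type 2-like cells, with alveolar type 1-like cells between these values. In airway-like, distal progenitor-like, alveolar type 1-like and alveolar type 2-like cells, Cldn10 with Cldn18 stood at 1.01, 1.06, 0.949 and 1.10. Correlations are given here and below as Pearson r of log(1 + thinned UMIs). Between members they were weak, from -0.07 (Cldn10 with Cldn18) to 0.23 (Cldn6 with Cldn7) over 3327 cells of the same library.

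The genes whose thinned levels followed Cldn10 most closely, among 6687 genes seen in at least 5% of cells, were Cdkn1c, an imprinted inhibitor of the cell cycle (Pearson r = 0.56), Ccnd2, a D-type cyclin (0.49), the aldehyde dehydrogenase gene Aldh1a7 (0.44), Anxa2 (0.38) and the imprinted RNA H19 (0.34). Cdkn1c, Ccnd2 and Aldh1a7 were also among the 10 leading genes of the airway-like cluster. The lowest r was with Bex4 (-0.40) and Dlk1 (-0.39), an imprinted Notch-family ligand gene. Over the 1858 cells of at most 14000 UMIs the r with Cdkn1c was 0.59 and with Dlk1 -0.39. The nearest gene to Cldn18 was Sftpc, encoding surfactant protein C (0.22), and the farthest were S100a6 (-0.20) and Sox2 (-0.17). Cldn3, Cldn6 and Cldn7 each had Epcam first (0.28, 0.34 and 0.25) and the ribosomal protein gene Rpl41 last (-0.27, -0.34 and -0.27). Close behind Epcam came Atp5b, Ubb and Eif4a1 for Cldn3 (0.26 each), Prdx1 (0.33) and Ppia (0.32) for Cldn6, and Ubb (0.24) for Cldn7. For Cldn4 no r exceeded 0.15. These values describe cells of 1 library, which share its classes and its capture, and the median r over all genes was 0.01 or 0.00.

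Single markers, which need no clusters, separated Cldn10 and Cldn18 in opposite directions. Epithelial cells with a Sox2 UMI (380 of the thinned cells) held Cldn10 at 436 CPM and the others at 143 CPM, a ratio of 3.04 (2.80 to 3.30). Cldn18 in the same 2 sets was at 154 and 267 CPM, a ratio of 0.577 (0.511 to 0.650). With Sftpc as the marker, the sign of both turned: Cldn10 was at 115 CPM with and 337 CPM without a UMI, and Cldn18 at 279 and 190 CPM. Cells with an Ager UMI, an early alveolar type 1 transcript, differed less, with Cldn18 at 298 against 242 CPM and Cldn10 at 168 against 179 CPM. Cells with an Mki67 or Top2a UMI, genes of cycling cells, held Cldn10 at 148 CPM against 200 CPM in the others, at a median depth of 14516.5 UMIs against 11710. Within the classes the Cldn10 ratios were 0.937 (0.844 to 1.04) in airway-like, 1.20 (0.971 to 1.48) in distal progenitor-like, 1.05 (0.905 to 1.23) in alveolar type 1-like and 1.07 (0.741 to 1.55) in alveolar type 2-like cells, and each interval includes 1. Cldn6 was at 358 against 421 CPM over all epithelial cells, and its ratio was between 0.848 and 0.931 in the 4 classes, with 1 inside the interval (0.848 to 1.02) in alveolar type 1-like cells.

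Inside the airway-like class, Cldn18 had the ratio farthest from 1 among the 6 genes for Scgb3a2, Ager, Sftpc and Sox2. The 213 cells with a Scgb3a2 UMI, a secretory product of the airways, held Cldn18 at 89.2 CPM and the other 543 at 223 CPM, a ratio of 0.400 (0.319 to 0.498). The median depths of these cells were close, at 11274 and 10595 UMIs. Cldn18 was higher in airway-like cells with an Ager UMI (293 against 167 CPM, ratio 1.75, 1.46 to 2.10), where the median depths were 11808 and 10527 UMIs, and in those with a Sftpc UMI (241 against 164 CPM), where they were 19708 and 9443.5 UMIs. Over the same Scgb3a2 split the ratios were 1.34 (1.18 to 1.51) for Cldn3, 1.26 (1.11 to 1.42) for Cldn7, 1.12 (1.01 to 1.25) for Cldn10, 1.03 for Cldn6 and 0.830 (0.626 to 1.09) for Cldn4. The intervals of Cldn6 and Cldn4 include 1. Inside the airway-like class Cldn10 was at 474 against 432 CPM for Sox2 (ratio 1.10, 0.997 to 1.21) and 487 against 434 CPM for Scgb3a2. It was lower in cells with a Sftpc UMI, at 375 against 477 CPM (0.785, 0.699 to 0.881). The same held for Sox9, at 374 against 464 CPM (0.807, 0.699 to 0.927), where the median depths were 17787.5 and 10125 UMIs.

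**Figure D5:**
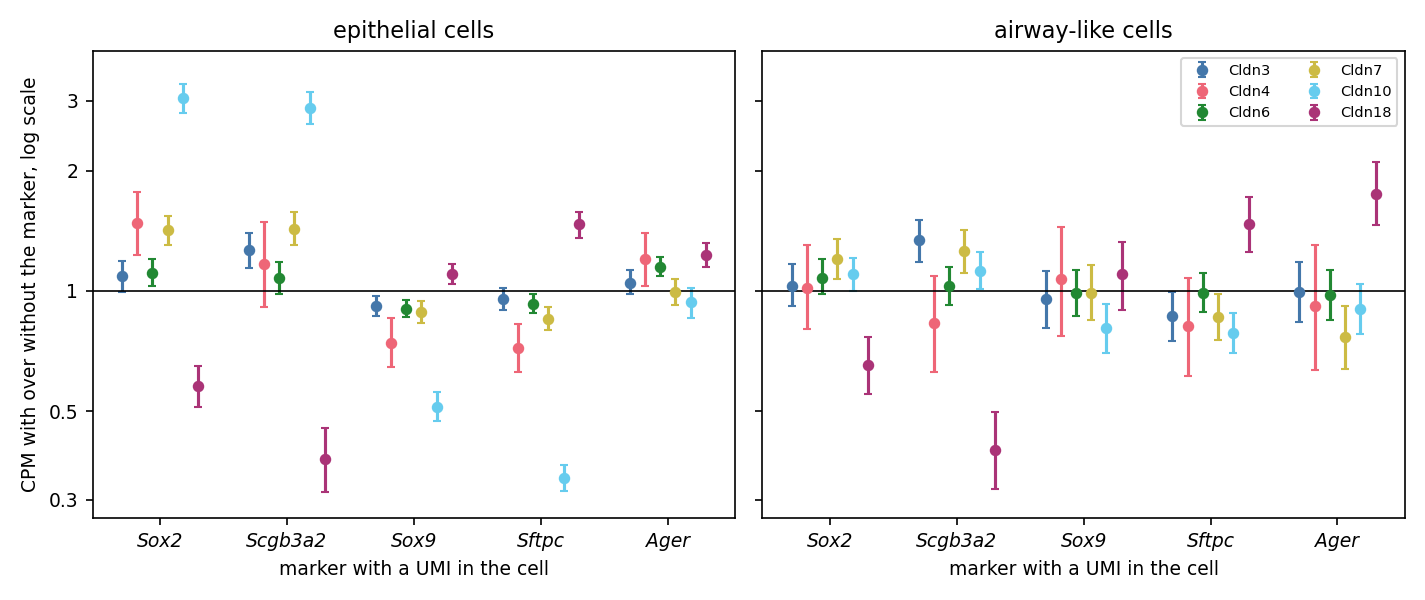
CPM of each claudin gene in thinned cells with over those without a UMI of a marker gene (x axis) as a ratio on a log scale (y axis), over all epithelial cells (left) and airway-like cells (right), with 95% counting intervals. On the left Cldn10 is at 3.04 for Sox2 and Cldn18 at 0.577, and on the right Cldn18 is at 0.400 for Scgb3a2 and 1.75 for Ager.

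Among the 29 other genes with a Cldn symbol, 6 had at least 50 UMIs in epithelial cells, 8 had fewer and 15 had 0. Their UMIs came to 6412, of which Cldnd1, a relative outside the claudins proper, gave 5042, against 77118 for the 6 members. Airway-like over distal progenitor-like, Cldn8 was at 9.53 and 0.715 CPM, a ratio of 13.3 (7.16 to 27.5), Cldn23 at 7.08 and 0.650 CPM (10.9, 5.63 to 23.6), and Cldn9, whose end lies beside that of Cldn6, at 13.6 and 6.50 CPM (2.08, 1.61 to 2.71). Cldn34c1 was lower, at 0.617 (0.411 to 0.911), and Cldn12 and Cldnd1 were at 0.892 and 1.10.

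The partners of claudins in the junction had a lower median ratio between these classes than the 6 members. Of 21 other tight junction genes, 19 had enough UMIs, and 6 of them were at 1.5 or more, beside 21.0% of all genes, and 0 at 1/1.5 or less, beside 5.07%. Their median log2 ratio was 0.34, against 0.21 for all genes and 0.72 for the 6 members. The highest were Ildr1, a protein of tricellular junctions, at 4.16 (2.75 to 6.46), Cgnl1 at 2.77 (2.30 to 3.34) and F11r, encoding junctional adhesion molecule A, at 2.07 (1.86 to 2.30). The lowest were Magi1 at 0.692, Ybx3 at 0.723 and Tjp1, encoding the scaffold ZO-1, at 0.882. Of 25 polarity and adherens junction genes, 5 were higher and 0 lower, beside 21.0% and 5.07% of all genes. Their median log2 ratio of 0.25 was close to the 0.21 of all genes, so the list as a whole was near the background. Cdh2, encoding N-cadherin, was 1 of the 5, with a ratio of 51.2 (26.7 to 113), and does not stand for the list. Of 23 epithelial transcription factor genes, 15 had enough UMIs, 9 were higher and 1 was lower, beside the same shares of all genes, the lower one being Gata6 at 0.540 (0.480 to 0.608). The highest were Grhl3 at 9.66 (5.11 to 20.1), Grhl1 at 4.34 (2.29 to 8.82) and Klf5 at 2.67 (2.38 to 3.01). These lists were chosen with earlier results of the data known, and a count or median of a list is a description.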

How the data were processed

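The deposited files of the control library hold raw UMI counts per gene and barcode, not normalized, with gene and barcode names. Cell Ranger, Seurat and the mm10 build are named in the submitters' processing notes, and 3.0.1 is the software version per the file headers. Barcodes with at least 1000 genes and at most 10% mitochondrial UMIs were kept. Counts were scaled to 10000 per cell, and the 2000 most variable genes (without Cldn, tight junction and cell-cycle genes) gave 20 components, 20 neighbours and Leiden clusters (resolution 0.5, seed 0; scanpy 1.11.5, leidenalg 0.10.2, Python 3.11.15). A cluster was named when at least 3 markers of a class, each with 10 UMIs or more, reached 2 times the CPM of all other cells. A cluster still unnamed was called distal at 1.5 times the CPM of airway-like cells. In both cases no other class could have more markers among the 10 leading genes of the cluster. The alveolar type 2-like cluster also reached 2 times for 3 distal markers, and its leading genes decided its name. No doublets were removed. One small cluster is not reported here. Class sums were compared as CPM with exact Poisson, Clopper-Pearson and conditional 95% intervals. UMIs are single captured molecules, and the intervals cover counting error only. A count of 0 is given with a limit of 3 counts. Shares used cells thinned at random to 5000 UMIs. Ratios used genes with at least 50 UMIs. On simulated counts for airway-like and distal progenitor-like cells (10787 genes, 200 of them changed), 95.1% of intervals held the true ratio. These counts were drawn from the sampling model that the intervals assume, without spread between cells, doublets or shifts of class boundaries. They therefore check the calculation only.

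All 6 members were named. Other Cldn genes were named from 50 UMIs, up to 3 highest and 3 lowest genes per list, and per member up to 5 of the most and 2 of the least correlated genes. Members, markers and lists were chosen with earlier results of these data known. The alternatives tried were other filters, cluster settings, scalings and depths.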

Additional observations from a re-analysis of the deposited data

How the results depend on the processing

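The boundary of the distal class moved between clusterings: it held between 1222 and 2582 cells in 13 of them. The single library leaves every value without a replicate. No paired analysis was possible because there was 1 library per genotype and no test. The count of members at 1.5 or more in airway-like over distal progenitor-like cells, 4, was 2 with at least 500 or 2000 genes, at most 5% mitochondrial UMIs, Leiden seeds 1 and 2, resolution 0.3 and 0.8, 3000 variable genes, cell-cycle genes kept in, ratios divided by the median of all genes, and Sox2-only against Sox9-only cells. The count at 1/1.5 or less, 0, was 1 (Cldn18) with at most 5% mitochondrial UMIs, at most 14000 UMIs, Leiden seed 2, cell-cycle genes kept in and the Sox2 and Sox9 gates. The first count was 3 with 1000 variable genes and with 10 components. It was 5 with at most 14000 UMIs, Cldn and tight junction genes kept in, and every cell weighing the same. Thus it ranged from 2 to 5.

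For alveolar-leaning over distal progenitor-like cells, 5 became 0 with at most 5% mitochondrial UMIs, Leiden seed 2, resolution 0.8, 3000 variable genes and cell-cycle genes kept in. It became 3 with 1000 variable genes, 10 components, Cldn and tight junction genes kept in, and, chosen after the data were seen, CPM outside ribosomal and mitochondrial genes. With ratios divided by the median of all genes it became 4. The count at 1/1.5 or less, 0, became 1 with Leiden seed 2, resolution 0.8, 1000 or 3000 variable genes and 10 components. The Cldn10 ratio of 2.20 reversed to 0.731 with at most 5% mitochondrial UMIs, 0.491 with Leiden seed 2, 0.499 at resolution 0.8, 0.50 and 0.512 with 1000 and 3000 variable genes, 0.587 with 10 components and 0.691 with cell-cycle genes kept in. The Cldn4 ratio of 1.54 reversed to 0.876 with Leiden seed 2, 0.886 at resolution 0.8 and 0.896 with 3000 variable genes. In each of these clusterings no cluster was alveolar type 1-like. Without the distal progenitor-like cluster of 28 cells, also added later, every count was the same. Shares of cells with a UMI moved with depth, for Cldn10 from 31.7% at 3000 UMIs to 61.5% unthinned.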
